A study of Drosophila melanogaster with 3 samples.

Results

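The ecdysone-inducible effector genes are 10 genes chosen by name, with earlier results of these data known: Eip63E, Eip63F-1, Eip71CD, ImpE1, ImpE2, ImpE3, ImpL1, Fbp1, Fbp2 and Lsp2. Each was searched for peaks of a GFP-tagged protein in Drosophila melanogaster prepupae. At least 1 reproducible peak was held by 6 of the 10, beside 21.8% of all protein-coding genes. Those 6 genes held 15 of the 5056 reproducible peaks. The members are 10 of the 13945 protein-coding genes on the chromosome arms that carry peaks.

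The data come from chromatin immunoprecipitation followed by sequencing (ChIP-seq), an assay that maps where a protein sits on DNA. The 3 samples are biological replicates of 1 group: whole prepupae, males and females pooled, of a transgenic line stably expressing CG4318 with GFP at its C-terminus. An antibody against GFP pulled down the chromatin, and a control experiment that the labels name as possible was not analysed here. The labels also give the animals an age of 48 days, which does not match the prepupal stage, and the stage was used. The labels do not say which promoter drives the transgene, and whole animals mix all tissues, so a peak cannot be placed in a cell type. With 1 group there is no contrast between conditions, and the values describe where peaks lie.

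Ecdysone is the steroid hormone whose pulses drive moulting and metamorphosis in flies. It binds a heterodimer of the nuclear receptors EcR and Usp, which switches on a small set of early regulators. These in turn control many of the effector genes that carry out the work in each tissue. Whether the receptor acts on a member directly or through these regulators was not examined here. Among the effectors, the Eip genes were named as ecdysone-induced proteins. The Imp genes were found as hormone-inducible transcripts of imaginal discs, the larval precursors of adult appendages. Fbp1, Fbp2 and Lsp2 are products of the fat body, the tissue that stores proteins for metamorphosis.

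A gene was counted as holding a peak when the summit, the highest point of a reproducible peak, lay in the gene body or within 2 kb of it. By that rule 6 of 10 members held a peak, whereas the share over all protein-coding genes was 21.8%. The members with a summit no more than 500 bp from the start of a transcript (the transcription start site, TSS) were 4, Eip63E, Eip63F-1, ImpE2 and ImpE3, against 9.40% of all genes. That count depends on the window, since the ImpE2 summit was 499 bp from its TSS. Within 250 bp only 1 member, ImpE3, was left (6.05% of all genes). The genes without a peak were Eip71CD, ImpL1, Fbp1 and Fbp2. Divided by role, 2 of 3 Eip members, 3 of 4 Imp members and 1 of 3 fat body members held a peak. Other genes of these names, such as ImpL2 and Eip55E, are not members and are not in these counts.

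The sequences under the strongest peak of each of the 6 genes are given first, since they show the letters at the summits that the rest of the text describes. Each covers dm6 from 50 bp before to 50 bp after the summit and is written 5′ to 3′ on the strand of the member, with the longest uninterrupted run of A and T in capitals. They are chr3L:3543104-3543204 (plus strand), chr3L:3928637-3928737 (minus), chr3L:8385211-8385311 (plus), chr3L:3513130-3513230 (minus), chr3R:8027330-8027430 (minus) and chr3L:12131934-12132034 (plus), in the order of the lines.
Eip63E peak 6: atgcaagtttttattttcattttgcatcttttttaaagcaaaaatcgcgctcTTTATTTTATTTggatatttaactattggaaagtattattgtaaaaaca
Eip63F-1 peak 2: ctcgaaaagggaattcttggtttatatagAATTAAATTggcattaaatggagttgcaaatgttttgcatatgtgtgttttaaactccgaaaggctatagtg
ImpE1 peak 2: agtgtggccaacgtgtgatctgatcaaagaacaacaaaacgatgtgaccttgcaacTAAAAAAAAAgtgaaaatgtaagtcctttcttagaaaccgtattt
ImpE2 peak 1: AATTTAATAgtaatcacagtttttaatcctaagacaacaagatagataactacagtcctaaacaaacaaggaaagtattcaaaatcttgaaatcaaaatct
ImpE3 peak 2: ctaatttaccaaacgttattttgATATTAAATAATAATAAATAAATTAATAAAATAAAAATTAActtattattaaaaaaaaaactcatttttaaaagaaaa
Lsp2 peak 1: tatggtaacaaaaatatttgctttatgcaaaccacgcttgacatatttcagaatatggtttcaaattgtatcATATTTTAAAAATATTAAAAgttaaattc

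The run at ImpE3 was the longest of the 6, at 41 bases, and 0.198% of all reproducible summits had a run at least that long. The run at Lsp2 had 20 bases, a length reached by 7.16% of summits. Runs at the other 4 genes were from 9 to 12 bases, which 39.4% to 71.7% of summits matched or passed.

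Eip63E encodes a cyclin-dependent kinase of the PFTAIRE family. It is much the longest member, with a gene body of 94.8 kb on 3L (3515751 to 3610521, plus strand, FBgn0005640), 14 transcripts and 4 TSSs. It held 7 reproducible peaks, all in introns. Peaks are numbered here from the 5′ end of the gene, and each carries the signal score that the authors' peak caller gave it in the pooled data, with its rank among the 5056.

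The strongest, peak 6, had its summit at 3543154 with a signal score of 327 and rank 1144. It lay 426 bp upstream of the TSS at 3543580, from which 5 of the 14 transcripts start, and so inside the gene at 27403 bp from its 5′ end. All 3 replicates listed a region there, at ranks 852, 1358 and 1735 for replicates 1, 2 and 3. Every one of these ranks was within the 5056 strongest regions of its replicate, called here its top list. No other Eip63E peak lay within 500 bp of a TSS.

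Peaks 1 to 6 fell within a single intron of 35958 bp, which 5 of the 14 transcripts share. Near its start, peaks 1 and 2 had summits at 3517976 and 3518176, 2225 and 2425 bp downstream of the first TSS. Their signal scores were 254 and 155, at ranks 1706 and 3346. Peaks 4 and 5 formed a second pair, at 3536575 and 3536785, with signal scores of 250 and 156 and ranks 1763 and 3329. Summits were 200 bp apart in the first pair and 210 bp in the second, and the regions overlapped in both.

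The replicates did not all separate these pairs. At peaks 1 and 2, replicate 2 listed 2 regions, while replicates 1 and 3 each listed 1 region that overlapped both peaks. At peaks 4 and 5, replicates 1 and 2 listed 2 regions and replicate 3 listed 1. Peak 4 ranked 1341, 3070 and 2732 in replicates 1, 2 and 3. Its partner, peak 5, ranked 1934, 6853 and 2732, so replicate 2 held it outside the top list.

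Peak 3, at 3530872, was the weakest of the gene, with a signal score of 117 and rank 4697, and lay 12708 bp from the nearest TSS. Its ranks were 4914, 6989 and 23973 in replicates 1, 2 and 3, the widest spread of any member's peak. Peak 7, at 3556582, lay in the next intron, which all 14 transcripts share, with a signal score of 198 and rank 2447. It was the last one along the gene, 40.8 kb from the 5′ end, and the remaining 53.9 kb held no reproducible summit. The pooled list did hold 18 candidate regions there, the best at rank 6936 with a signal score of 79.9.

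**Figure D1:**
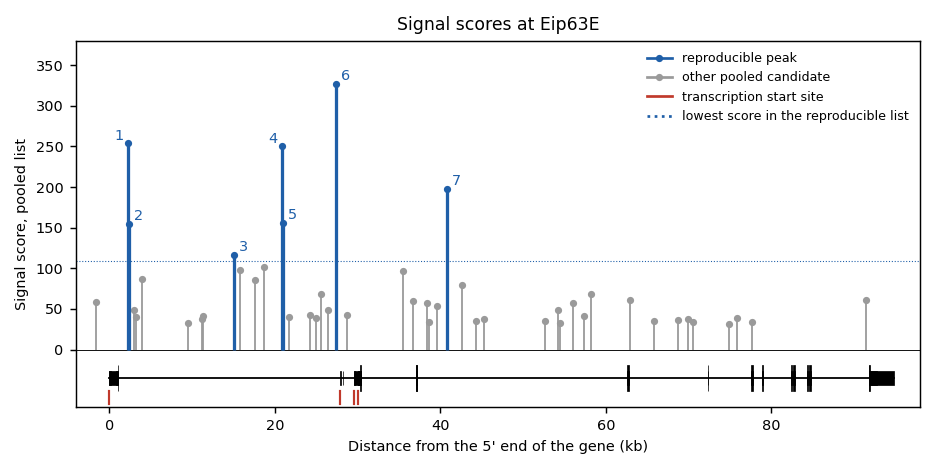
Signal score in the pooled list (vertical axis) against distance from the 5′ end of Eip63E (horizontal axis, kb). Blue stems are the 7 reproducible peaks with their numbers, grey stems the 39 other pooled candidates, black boxes exons (taller for coding sequence), red ticks TSSs, and the dotted line the lowest score of the reproducible list, 109. All blue stems lie in the first 40.8 kb, and the tallest, at 327, stands just before the second TSS.

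Eip63F-1 encodes a calcium-binding protein with EF-hand domains. Its gene body of 25.6 kb (3L, 3909973 to 3935617, minus strand, FBgn0004910) has 4 transcripts, each with a TSS of its own. Peak 1 lay 320 bp upstream of the first TSS, at 3935937, with a signal score of 122 and rank 4454. That summit also fell in an exon of the antisense RNA gene asRNA:Eig63F-2 and within 2 kb of CG10866. Replicate 1 listed no region at it, and replicates 2 and 3 did so at ranks 8229 and 4639.

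Peak 2 of Eip63F-1 was better supported. Its summit at 3928687 had a signal score of 209 and rank 2257, and lay in an intron 476 bp downstream of the TSS at 3929163. Ranks were 3841, 2841 and 1024 in replicates 1, 2 and 3, all in the top lists.

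Eip71CD is listed in the annotation as MsrA (FBgn0000565) and encodes methionine sulfoxide reductase A, which repairs oxidised methionine in proteins. Its gene body of 2.15 kb lies on 3L at 15511052 to 15513202. No region of the reproducible list, the pooled list or any replicate list had its summit in the gene or within 2 kb. The nearest reproducible summit, at 15508360, was 2692 bp outside the gene, with a signal score of 601, and lay 108 bp from the TSS of CG7841. The depth of the libraries is unknown, so an unlisted site says that no region was listed, not that the protein was absent.

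ImpE1 has a gene body of 18.8 kb on 3L (8372405 to 8391171, plus strand, FBgn0001253), and its 3 transcripts share 1 TSS. Both of its peaks lay far inside it, in an intron of 5743 bp that 2 of the 3 transcripts contain. Peak 1, with its summit at 8384184, was 11779 bp from the TSS and had a signal score of 221 and rank 2085. Peak 2, at 8385261, was 12856 bp from it, with a signal score of 364 and rank 925. The protein-coding TSS nearest to both belonged to the Jonah protease gene Jon66Ci, 6279 bp or more away. In replicates 1, 2 and 3 the ranks were 2439, 2381 and 2255 for peak 1, the closest agreement in ranks among members' peaks, and 588, 1596 and 1205 for peak 2. ImpE1 is thus a gene with peaks of middling to high rank in every replicate and none near its start.

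ImpE2 is a short single-transcript gene of 1.71 kb on 3L (3510974 to 3512681, minus strand, FBgn0001254), a neighbour of Eip63E with 3069 bp between them. Its peak lay upstream at 3513180, 499 bp from the TSS, with a signal score of 125 and rank 4341. Replicate 1 ranked its region 3213, replicate 2 ranked it 10871 and replicate 3 ranked it 14118, so that it was in the top list of replicate 1 and no other.

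The gene ImpE3, of 1.09 kb, lies on 3R at 8028453 to 8029546 (minus strand, FBgn0001255), inside the span of the longer gene CG2747 on the same strand. Peak 2 lay 1073 bp beyond the end of ImpE3, at 8027380, and was the strongest at any member, with a signal score of 494 and rank 540. That summit was in an intron of CG2747 and 206 bp upstream of one of its TSSs. CG10903 and CG11035 also lie within 2 kb of the peak upstream of ImpE3. The ranks of peak 2 in replicates 1, 2 and 3 were 391, 575 and 736. Peak 1, at 8029787, was 241 bp upstream of the TSS of ImpE3 and the weakest at any member, with a signal score of 112 and rank 4888. Replicate 3 listed no region there, and replicates 1 and 2 ranked theirs 5550 and 8635, outside their top lists.

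ImpL1, of 1.24 kb (3L, 13382765 to 13383999, plus strand, FBgn0001256), stood farthest from any peak. The nearest reproducible summit was 66349 bp away, 65 bp from the TSS of JMJD7. The pooled list held 0 candidates within 2 kb, and the replicates held 1 in all, from replicate 1 at rank 28866 of 30000.

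In the fat body group, Lsp2 held a peak and the other members did not. Lsp2 encodes a hexamerin, a storage protein of the larval blood, and lies on 3L at 12129393 to 12131869 (plus strand, FBgn0002565). Its peak was at the far end of the gene, 115 bp past it, at 12131984, with a signal score of 217 and rank 2146. The same summit was 162 bp upstream of the TSS of DEF8, the nearest protein-coding TSS, within 2 kb of CG5645, and 2591 bp from the TSS of Lsp2. Replicates 1 and 2 ranked it 3661 and 2177, and replicate 3 listed no region.

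Fbp1, which encodes a fat body receptor for storage proteins, held no reproducible peak (3L, 14094589 to 14098053, minus strand, FBgn0000639). The pooled list had 2 candidates there, at ranks 13901 and 26904, both past the end of the gene, and the nearest reproducible summit was 11193 bp away, 219 bp from the TSS of CG8100. Fbp2, a relative of alcohol dehydrogenase, also held none (2L, 9426784 to 9427917, plus strand, FBgn0000640). It had 1 pooled candidate, 746 bp upstream, at rank 29043. Outside the 2 kb limit, 3359 bp from Fbp2, stood a reproducible summit with a signal score of 707, located 129 bp from the TSS of scat.

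**Figure D2:**
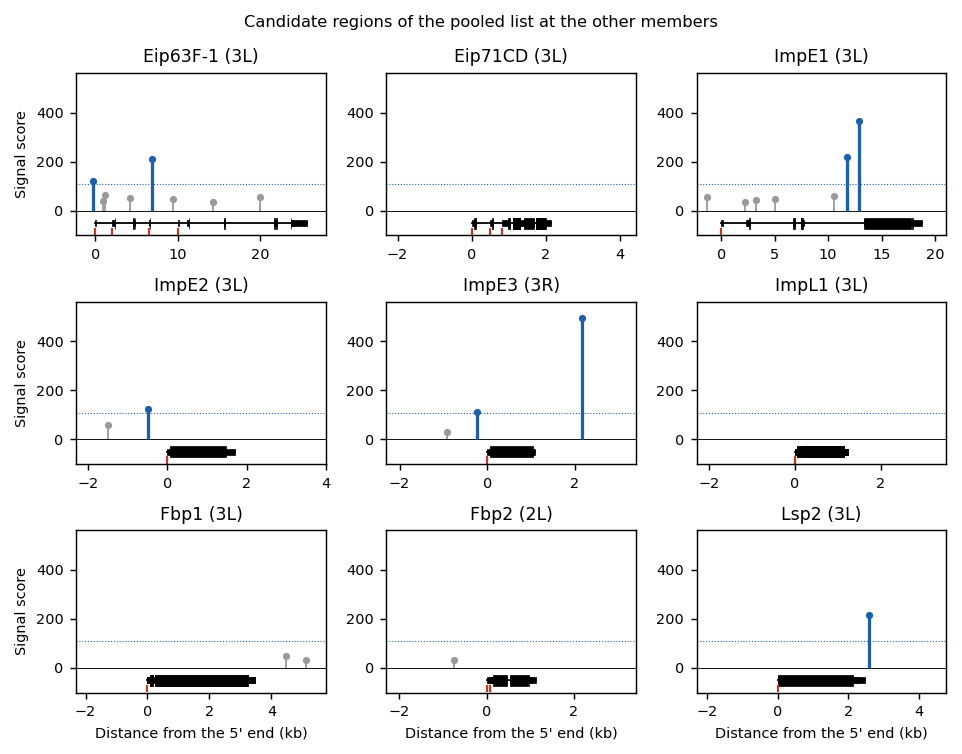
Signal score in the pooled list (vertical axes) against distance from the 5′ end of each gene (horizontal axes, kb) for the other 9 members, with the chromosome arm in parentheses. Blue stems are reproducible peaks, grey stems other pooled candidates, black boxes exons, red ticks TSSs, and the dotted line is the lowest score of the reproducible list, 109. The tallest stem, at 494, lies past the end of ImpE3, and the panels of Eip71CD and ImpL1 hold no stem.

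Support by the replicates can be read across all 15 peaks. All 3 replicates listed a region at 12 of the 15, or 80.0%, and over the whole reproducible list the share was 83.2%. In the top lists of all 3 were 10 peaks, or 66.7%, against 56.6% of all reproducible peaks. Those 10 belonged to Eip63E, Eip63F-1, ImpE1 and ImpE3, and not all were supported separately. Eip63E peaks 1 and 2 shared 1 region in replicates 1 and 3, and peaks 4 and 5 shared 1 in replicate 3. In replicate 2, peak 5 is counted only because the region of peak 4, at rank 3070, also overlapped it. Of the 3 peaks that a replicate did not list, those upstream of ImpE3 and beyond Lsp2 were missing from replicate 3, and the one upstream of Eip63F-1 from replicate 1. Replicate 3 listed 83.6% of all reproducible peaks, whereas replicates 1 and 2 listed 99.6% and 99.8%.

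Where a replicate did list a region, the distance between its summit and the reproducible one was measured. Only regions that overlapped the peak were compared, which by itself limits that distance. The median distance was 41.5 bp in replicate 1 (14 peaks), 32.0 bp in replicate 2 (15 peaks) and 64.0 bp in replicate 3 (13 peaks), and the largest was 150 bp. The reproducible list was made from these same replicates and their pooled data, so the support by the replicates is partly built in. All 5056 reproducible peaks were also the 5056 highest ranked regions of the pooled list.

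**Figure D3:**
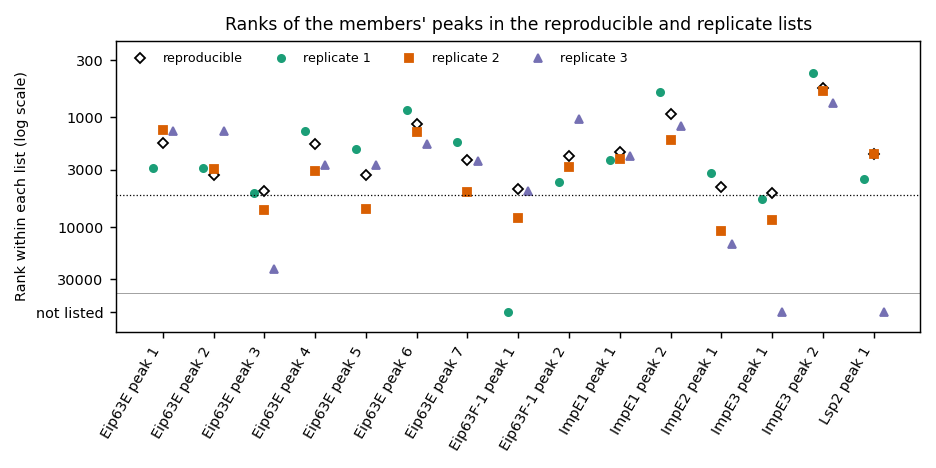
Rank within each list (vertical axis, log scale, strongest at the top) for the 15 peaks at the members (horizontal axis). Diamonds give the rank in the reproducible list, circles, squares and triangles the overlapping region in replicates 1, 2 and 3, and the dotted line rank 5056. ImpE3 peak 2 stays between ranks 391 and 736 in all lists, and 3 symbols lie at the level of regions that were not listed.

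The peaks at members were of ordinary strength. Their median signal score was 209 (range 112 to 494, SD 107, 15 peaks), and the median of the whole list was 193 with scores up to 2606. Above the median of the list were 9 of the 15, and none was among the 500 strongest, since the best rank was 540. Among the 4 peaks that lay upstream of a member's TSS by less than 500 bp, ranks were 1144, 4341, 4454 and 4888. The first is the internal TSS of Eip63E, and the other 3 stood between 85.9% and 96.7% of the way down the list.

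No summit fell close to the 2 kb limit: the farthest inside it was 1073 bp from its gene (ImpE3), and the nearest outside were 2571 bp from Eip63E, 2692 bp from Eip71CD and 3359 bp from Fbp2. By position, 10 of the 15 summits were in introns of the member, 3 upstream and 2 downstream, and 0 were in a coding exon of any gene. Of the 10 in introns, 7 were those of Eip63E. When every reproducible summit was paired in the same way with each protein-coding gene in reach, 55.1% of 6012 pairs were intronic, 27.8% upstream and 14.1% downstream. Coding exons held 5 of the 5056 summits, so 0 among 15 is ordinary for the list. Several peaks at members are as near to other genes. The summits past the ends of ImpE3 and Lsp2 were closer to TSSs of CG2747 and DEF8 than to those of the members. When each summit was given to the protein-coding gene with the nearest TSS, 11 peaks at 4 members were left. The share of all genes under this nearest-TSS rule was not computed, and the 21.8% of the 2 kb rule is not its background. ImpE1 then lost both of its peaks, Lsp2 its only one, and ImpE3 its peak 2.

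Longer genes have more room for peaks, and gene length differed widely among the members. Among protein-coding genes of 4999 bp or longer, 44.6% held a peak, and so did 3 of 3 members, Eip63E, Eip63F-1 and ImpE1. Below that length 14.2% of genes held a peak, and 3 of 7 members did. Counted per length of gene body and flanks, the members held 7.79 summits per 100 kb, against 3.96 over all protein-coding genes. Without Eip63E the value was 8.54. Of 285 genes between 50 and 150 kb long, the median held 2 peaks, and 49 held more than the 7 at Eip63E. These shares and densities were not tested, since the genes were chosen with results of these data known.

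**Figure D4:**
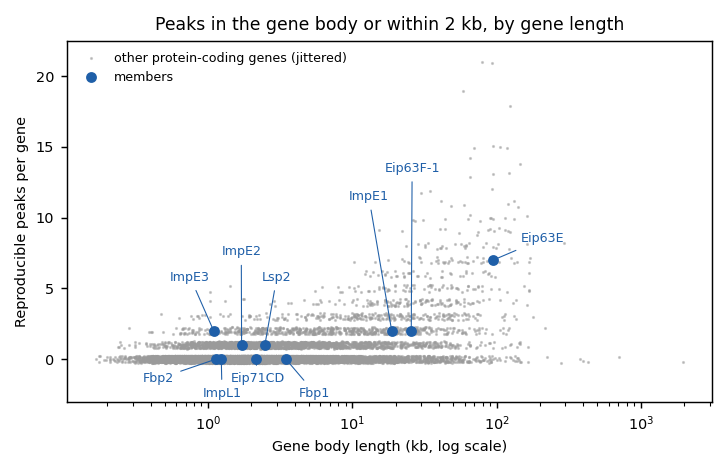
Reproducible peaks in the gene body or within 2 kb (vertical axis) against gene body length (horizontal axis, kb, log scale) for all protein-coding genes. Grey dots are other genes with a small vertical jitter, and blue dots the 10 members. Eip63E stands at 7 peaks and 94.8 kb, and the 4 members without a peak lie at 0 among genes shorter than 4 kb.

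Summits at members were rich in A and T, as in the list as a whole. Over the windows that reach 50 bp to each side of the summit, the median GC content was 29.7% (mean 29.7% ± 9.74, SD over 15 peaks), and over all reproducible summits it was 30.7% (mean 30.9% ± 7.12, SD over 5056 peaks). Windows of that size centred 200 bp to each side averaged 45.8% ± 5.18 (SD over 15 peaks) at members and 44.5% ± 6.92 (SD over 5056 peaks) in all. ImpE3 peak 2 had a GC content of 9.90%, the third lowest value of the list. GC content was lower at the summit than beside it for 13 of 15 peaks (86.7%), close to the 90.2% of all 5056, and the exceptions were Eip63E peaks 2 and 5. These are the weaker peaks of the overlapping pairs, with 50.5% and 43.6% GC at the summit against 41.1% beside each. Their summits were themselves rich in GC for the list, at ranks 4995 and 4789 of 5056 counted from the lowest GC. One of their side windows lies at the summit of the stronger partner, which had 33.7% at peak 1 and 29.7% at peak 4.

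**Figure D5:**
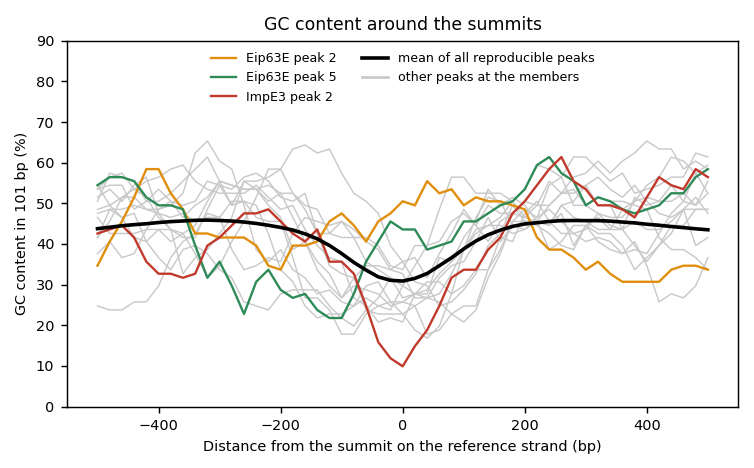
GC content in windows reaching 50 bp to each side (vertical axis, percent) against distance from the summit (horizontal axis, bp) in steps of 20 bp. The black line is the mean over 5056 reproducible peaks, coloured lines 3 named peaks and grey lines the other 12 peaks at members. The line of ImpE3 peak 2 falls to 9.90% at the summit, while Eip63E peak 2 is at 50.5% there.

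Short motifs were looked up on both strands in the summit windows. TATAAA, the letters of the TATA box, was in 5 of 15 windows at members and in 25.2% of all 5056. TCANTGA, the core of the palindromic element bound by the ecdysone receptor, was in 1 window, at Eip63E peak 4, and in 3.16% of all. GAGAG, bound by GAGA factor, was also in 1 window, at Eip63E peak 2, and in 8.19% of all. CAAGGTCA, a site of the nuclear receptor Ftz-f1, was in the window of ImpE1 peak 2 and in 10 of the 5056 windows, or 0.198%. CACGTG was in 0 windows at members and in 0.435% of all. TCANTGA and CACGTG read the same on both strands, and no motif searched contains another. A match is a description of the letters, not evidence of binding by the named factor.

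The 2 stretches with the rarer matches are shown with the match in capitals, 5′ to 3′ on the plus strand of dm6, from chr3L:3536563-3536603 and chr3L:8385238-8385278. In the second the match is on the minus strand, so it reads as its reverse complement. The matches began 5 and 6 bp from the summits.
Eip63E peak 4: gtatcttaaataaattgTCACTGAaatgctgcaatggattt
ImpE1 peak 2: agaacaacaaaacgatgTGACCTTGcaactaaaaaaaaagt

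Promoters were read from 250 bases before to 50 bases from the TSS on. The promoter of ImpE2 (chr3L:3512632-3512931, minus strand) is shown because, among 21 promoters of the 10 members, it was the one with TCANTGA, a match that 6.85% of 19253 protein-coding promoters held. It also has TATAAA, found in 42.2% of promoters, with its first base 24 bp upstream of the TSS. That of ImpE3 (chr3R:8029497-8029796, minus strand) is shown because the summit of its weaker peak lies inside it, 241 bp upstream of the TSS, and TATAAA occurs there on both strands. Matches are in capitals.
ImpE2 promoter: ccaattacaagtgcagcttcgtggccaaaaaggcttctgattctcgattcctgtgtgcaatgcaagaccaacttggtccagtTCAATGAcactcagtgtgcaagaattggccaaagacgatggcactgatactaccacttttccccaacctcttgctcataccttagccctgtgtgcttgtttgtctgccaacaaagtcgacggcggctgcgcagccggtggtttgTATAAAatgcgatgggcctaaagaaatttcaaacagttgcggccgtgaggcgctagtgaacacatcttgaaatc
ImpE3 promoter: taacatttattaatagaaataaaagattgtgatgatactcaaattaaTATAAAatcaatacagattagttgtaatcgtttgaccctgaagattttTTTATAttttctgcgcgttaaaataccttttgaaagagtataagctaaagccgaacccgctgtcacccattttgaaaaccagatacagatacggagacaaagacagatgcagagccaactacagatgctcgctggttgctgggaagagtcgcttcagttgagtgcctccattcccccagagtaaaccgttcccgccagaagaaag
Across the 21 promoters, TATAAA was in 6, GAGAG in 9, which 33.1% of all promoters held, and CACGTG in 0, against 4.01%. CAAGGTCA was in 1, at an internal TSS of Eip71CD, and in 0.545% of all promoters. At ImpE2 the A and T rich summit (25.7% GC) lay upstream of the promoter, which had 48.7% GC. At ImpE3 the summit (20.8% GC) lay just inside the upstream edge of a promoter of 38.7% GC, which thus includes part of the summit window.

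Members were also set beside other genes of the ecdysone pathway, counted by the same rule. Over all protein-coding genes the share with a peak was 21.8%. It was 44.6% among those of 4999 bp or longer and 10.3% among those of 1179 bp or shorter. Of 17 receptor and regulator genes, 16 held a peak and Kr-h1 did not, with a median of 4 peaks and a median gene length of 39.9 kb. The strongest were at the ETS factor gene Eip74EF (signal score 1146, 8 peaks), the nuclear receptor gene Eip75B (1044, 10 peaks) and the coactivator gene tai (811, 6 peaks). Of 23 other effectors, glue proteins and storage proteins, 2 held a peak (8.70%, near the share of the shortest genes), with a median gene length of 0.751 kb. They were ImpL2, whose product binds insulin-like peptides (signal score 1073, 2 peaks), and Ldh, lactate dehydrogenase (766, 3 peaks). The rest, which were the 11 Eig71E genes, 6 Sgs glue genes, 3 Lsp1 genes and Cth, the present name of Eip55E, held none. The members, at 6 of 10 and a median length of 2.31 kb, lay between the lists in both share and length. These lists were chosen with earlier results known, and gene length runs with the share of genes that held a peak across all 3. Its part in these counts was not tested.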

How the data were processed

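ChIP-seq for CG4318-eGFP was carried out on 3 biological replicates, per the labels. The deposited lists give for each region a signal score from the authors' peak caller, whose scale the sources leave unstated, and which was used only to describe and rank regions within 1 list. Per the deposited file descriptions, replicate lists came from 1 alignment each, the pooled list from all 3, and the reproducible list from these by thresholding the irreproducible discovery rate. The aligner, the caller and their versions: not given in the sources used here. Read depth is unknown. The dm3 lists were not used.

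Genes and TSSs were read from the BDGP6 annotation (version 54) of Ensembl release 115, and sequence was that of the Release 6 assembly, within whose arms all dm6 regions lay. Coordinates are 1-based. Eip71CD and Eip55E were matched through RefSeq synonyms. Summits were assigned to genes within 2 kb, to TSSs within 500 bp, and to the replicate region with the largest overlap (at least 1 bp). Counts of peaks in the top lists accepted any overlapping region of a top list. GC, A/T runs and motifs were counted in windows reaching 50 bp to each side of the summit. The searches were tested on simulated data and placed 2000 of 2000 genes correctly. Python 3.11.15, numpy 2.4.6, pandas 2.3.3 and matplotlib 3.10.9 were used.

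Members, lists and alternatives were chosen with earlier results of these data known, so no list was tested. The A/T runs and the counting of overlapping peaks once were added after the values were seen. Named genes were all members, genes that share or lie nearest to their summits, for members without a peak the gene nearest to the next summit, and up to 3 genes with the strongest summit in each pathway list. Kr-h1 and the families without a peak, Cth included, were named after their values were seen. Printed sequences are the strongest summit of each member, short stretches at rare motif matches, and 2 of the 5 promoters with a summit within 500 bp.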

Additional observations from a re-analysis of the deposited data

How the results depend on the processing

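The number of peaks moved most with the list: all pooled candidates numbered 69 instead of 15, at 8 members (51.1% of all genes). The reproducible peaks above the median signal score included 9 of the 15, at 5 members (15.6% of all genes). With the gene body alone, 3 members (Eip63E, Eip63F-1 and ImpE1) held a peak instead of 6 (10.2% of all genes), and with a TSS window of 250 bp, 1 member (ImpE3) had a TSS peak instead of 4 (6.05% of all genes), because the summits at Eip63E, Eip63F-1 and ImpE2 were 426, 320 or 476, and 499 bp from a TSS. Restricting TSS peaks to those in the top lists of all 3 replicates left 2 members, Eip63E and Eip63F-1 (5.36% of all genes). The same restriction on peaks in the gene body or within 2 kb left 4 members instead of 6, since ImpE2 and Lsp2 dropped out. Of 37 alternatives, 32 left counts and densities within 1.5 times the value given, and medians within 1 SD over the peaks. These limits are wide, since the SD was 107 for signal score and 9.74 for GC content. A count of 4 members instead of 6 also fell within them, so 32 of 37 is no measure of stability. Counting each overlapping pair once, chosen after the data were seen, left 13 peaks. Leaving out each replicate in turn, the number of peaks listed in all remaining replicates was 12 to 14. Asking for fewer replicates cannot lower that number, which was 12 with all 3, so this is no check of it. The authors' thresholding could not be repeated without a replicate, so the counts of peaks rest on all 3. No paired analysis was possible because the samples form 1 group. Read depth is unknown, which limits what an unlisted site can show.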

Other observations

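Candidate regions that did not enter the reproducible list were found at 7 of the 10 members, 54 distinct regions in all, at pooled ranks from 5401 to 29972. Over all protein-coding genes 44.5% had such a region in the gene body or within 2 kb. The best, chosen after its value was seen, lay in the long intron of Eip63E, 18712 bp from its 5′ end, with a signal score of 102. It stood between peaks 3 and 4 of that gene together with candidates of rank 5601 and 6513, 15821 and 17572 bp from the 5′ end. Fbp1 had a region at its start in replicate 3, with the summit 159 bp into the gene at rank 16772. The pooled list and replicates 1 and 2 held no region there. Fbp2 had 3 regions in replicate 3 and 1 each in replicates 1 and 2, and the pooled region matched that of replicate 1 alone, with summits 746 and 762 bp upstream.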
